A study of Mus musculus with 6 samples.

Results

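The genes described here are 31 genes of the endoplasmic reticulum (ER) folding and quality control machinery, in CD8+ T cells from mouse spleen. They were listed by function, with earlier results of these data known, as the luminal chaperones, the lectin chaperones and disulfide isomerases, the stress sensors with their transcription factors, the degradation machinery and the translocon, and they make up 31 of the 28773 genes in each deposited file. All 6 samples came from tumor-bearing mice treated with microwave ablation (MWA), which destroys a tumor by local heating, and were taken on day 35. The 3 MWA+PBS samples (replicates 1 to 3) received the PBS vehicle after ablation and the 3 MWA+2DG samples (replicates 4 to 6) received 2-deoxy-D-glucose (2DG), a glucose analogue that blocks glycolysis. In the study's methods the injections were intraperitoneal, were repeated every other day and ended before the spleens were collected, the mice were female, and the cells were isolated with a mouse CD8+ T cell kit. The labels give neither the tumor, the strain nor the age for these samples, and no sample without ablation was part of the comparison. The labels do not say that the samples of a group came from separate animals, so the p-values measure the spread between these samples, which may be technical.

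Proteins bound for the cell surface or for secretion enter the ER through the translocon, fold there with the help of chaperones and disulfide isomerases, and are pulled back to the cytosol for degradation when folding fails. Misfolded protein in the ER triggers the unfolded protein response through the sensors IRE1 (encoded by Ern1), PERK (Eif2ak3) and ATF6 (Atf6). IRE1 splices the Xbp1 mRNA, PERK slows translation and raises ATF4, and ATF6 is cut to release a transcription factor; together they raise chaperone and degradation genes, which are also in high demand in activated T cells and in antibody-secreting cells. 2DG resembles mannose as well as glucose and can enter the synthesis of N-linked glycans, so it is also known as a disturber of glycoprotein folding.

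Some of these genes carry a DNA element through which ATF6 and XBP1 are known to act, and examples are shown first to let the element be seen in the members that have it. The ER stress response element (ERSE) was searched as CCAAT, 9 bases, then CCACG, and ERSE-II as ATTGG, 1 base, then CCACG, on both strands of the promoter window from 250 bases before to 50 bases after each annotated start (RefSeq, GRCm38.p6). This build is not the mm9 named in the submitters' processing notes, and only sequence, not measured values, was taken from it. The table held 26 of the 31 members, without Hyou1, Manf, Atf6, Derl1 and Sec61a1. The windows below run 5′ to 3′ on the strand of the gene, with the element in capitals and 20 bases on each side. Capitals that begin with CGTGG are the element on the opposite strand.
Hspa5, chr2:34772005-34772063, plus strand: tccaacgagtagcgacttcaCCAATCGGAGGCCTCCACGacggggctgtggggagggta
Hsp90b1, distal, chr10:86705618-86705676, minus strand: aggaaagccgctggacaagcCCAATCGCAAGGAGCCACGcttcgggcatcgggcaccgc
Hsp90b1, proximal, chr10:86705513-86705571, minus strand: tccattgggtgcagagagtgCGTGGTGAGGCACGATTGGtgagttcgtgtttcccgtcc
Pdia6, chr12:17266471-17266529, plus strand: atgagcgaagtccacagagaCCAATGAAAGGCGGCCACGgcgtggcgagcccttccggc
Calr, chr8:84847055-84847113, minus strand: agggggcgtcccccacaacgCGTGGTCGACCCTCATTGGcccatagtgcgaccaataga
Dnajc3, chr14:118937807-118937865, plus strand: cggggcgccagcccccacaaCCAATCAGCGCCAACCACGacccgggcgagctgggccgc
Herpud1 (ERSE-II), chr8:94386357-94386407, plus strand: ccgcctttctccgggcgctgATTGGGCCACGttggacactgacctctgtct

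A gene was counted when any of its windows held a match. The ERSE was found in 9 of the 26 members, against 0.137% of the 27025 genes in the table. Of the 8341 of these genes that were tested for expression, it was found in 0.144%. Beside the genes shown above, these were Canx, Creld2, Syvn1 and Derl3. ERSE-II was found in 2 of the 26, Herpud1 and Dnajb11, against 0.0444% of all genes and 0.108% of tested genes, and the element of Dnajb11 lay after the annotated start. The core CCACG, which is part of both elements, occurred in 22 of the 26 members, in 35.5% of all genes and in 52.1% of tested genes. The unfolded protein response element, searched as TGACGTGG, was in 0 of the 26 members, in 0.714% of all genes and in 0.971% of tested genes. Because the ERSE is known as an element of such genes and the members were listed by function, their higher share is no independent result. A match is a description of the letters in this window and no evidence of binding.

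**Figure D1:**
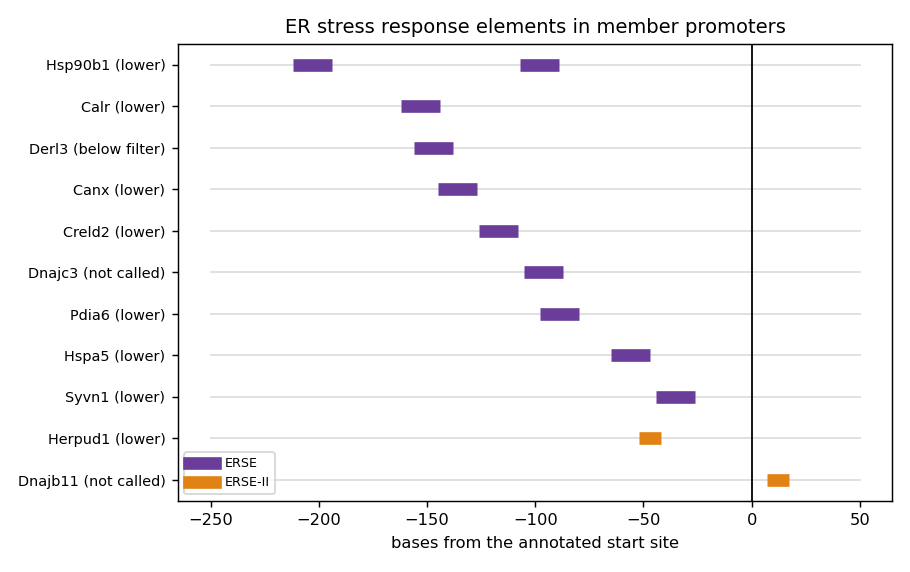
Positions of ERSE and ERSE-II matches in the promoter windows of 11 members, in bases from the annotated start site (x axis), one line per gene with its test call in brackets. Hsp90b1 held 2 ERSE matches, and the ERSE-II of Dnajb11 was the only match after the start.

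The values are FPKM as deposited, in which fragments are divided by the length of the transcript and by the mapped total of the library. Because of the length scaling, levels may be set side by side between genes. FPKM holds no read counts, so the depth of each sample is unknown. FPKM totals were between 291803 and 313257 and between 22414 and 23340 genes were above 0. Pearson's r of log2(FPKM + 1) across tested genes was between 0.984 and 0.989 within groups and between 0.934 and 0.943 between groups. No batch is named in the labels, and one that ran along with the treatment cannot be told apart from it. In bulk samples, fewer cells of a type and less RNA per cell cannot be told apart.

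The defining CD8 T cell genes were high in every sample, and genes of other cell types were also present and moved with the groups. The 6 CD8 T cell identity genes had summed FPKM of 1008 to 1065 in MWA+PBS against 1480 to 1572 in MWA+2DG, and 6 of 6 were higher by the test defined below. Of the monocyte and macrophage genes 15 of 16 were lower (summed FPKM 812 to 875 against 134 to 141; C1qa, a log2 fold change of -2.63), and of the erythroid genes 9 of 9 were lower (294 to 350 against 67.2 to 85.3). Of the plasma cell genes 6 of 9 tested were lower and 1 was higher (1712 to 1903 against 741 to 831; Jchain, -1.30). Their defining marker Sdc1 was below 1 FPKM in every sample, as were Tnfrsf17 and Eaf2. Of the B cell genes 9 of 9 tested were higher (9.76 to 10.9 against 60.9 to 66.2; Cd79a, 2.60), and of the neutrophil genes 10 of 13 were higher and 2 lower (337 to 366 against 1621 to 1802; S100a8, 4.50). Platelet genes were lower for 3 of 3 tested (13.3 to 17.0 against 4.65 to 7.68), dendritic cell genes for 2 of 4 (34.6 to 41.9 against 34.8 to 41.5) and CD4 T cell genes for 2 of 4 (10.4 to 10.8 against 8.04 to 8.56). No gene of these lists was at 0 in all 6 samples. Of the proliferation genes 15 of 16 were lower (229 to 247 against 151 to 159.9; Mki67, -0.81), of the cytosolic heat shock genes 11 of 11 tested (2378 to 2517 against 1005 to 1061) and of the immediate early genes 8 of 12, with 1 higher (441 to 473 against 146 to 153). Hspa1b, with a log2 fold change of -5.64, was the largest of these, and its reads can be shared with the near-identical Hspa1a. The part of any of these lists in the results for the ER genes was not tested.

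The ER genes together made up less of the measured RNA in MWA+2DG. Their summed FPKM was 1319, 1403 and 1274 in the MWA+PBS samples and 1043, 1029.7 and 1083 in the MWA+2DG samples, or 1332 ± 65.4 against 1052 ± 27.7 (SD, n = 3 each). The 3 MWA+2DG samples lay below all 3 MWA+PBS samples. As a share of all FPKM this was 0.424% to 0.448% against 0.342% to 0.371%. Calr, the calcium-binding lectin chaperone calreticulin, had the highest FPKM of the 31 genes in each of the 6 samples, and Derl3 the lowest.

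Each gene was tested with limma on log2(FPKM + 1), MWA+2DG minus MWA+PBS, for genes with a mean FPKM of at least 1 over the 6 samples, and was called at a Benjamini-Hochberg adjusted p under 0.05 over all 12444 tested genes. Of the 31 ER genes 30 were tested, and 21 were lower, 2 were higher (Edem1 and Derl2) and 7 were not called. Of all tested genes 17.1% were lower and 22.3% were higher. The median log2 fold change of the 30 genes was -0.31, against 0.05 over all tested genes. By the rule of the study's methods, an unadjusted limma p under 0.05 and a log2 fold change of more than 0.25 in size, 18 were lower and 2 higher, against 16.6% and 21.6% of all tested genes. The groups did not overlap for 22 of the 30 with MWA+2DG lower and for 3 with MWA+2DG higher, against 21.9% and 30.2% of all tested genes.

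**Figure D2:**
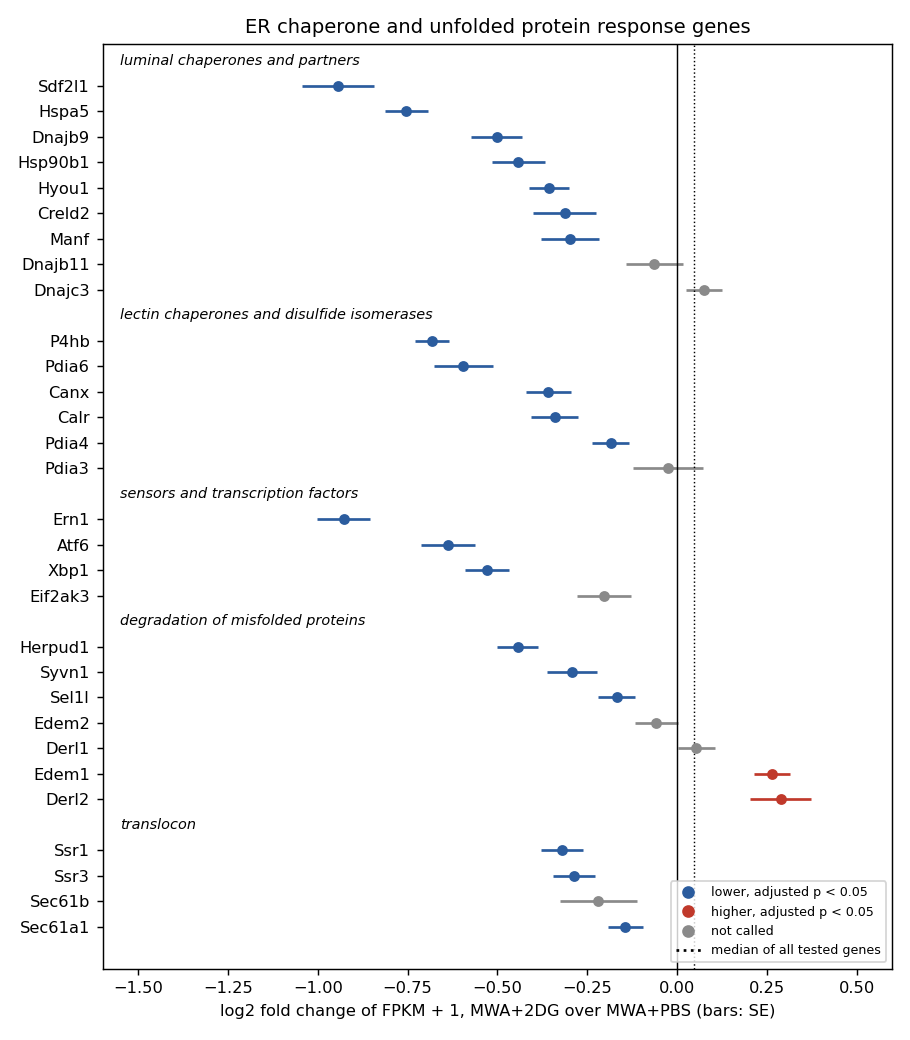
Log2 fold change of FPKM + 1 (x axis, MWA+2DG over MWA+PBS) for the 30 tested ER genes, grouped by role; points are limma estimates, bars their SE. Of the points 21 are lower and 2 higher, with the largest decreases at Sdf2l1 (-0.94) and Ern1 (-0.93), and the dotted line marks the median of all tested genes at 0.05.

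Among the luminal chaperones and their partners 7 of 9 were lower, 0 were higher and 2 were not called, with a median log2 fold change of -0.36. Sdf2l1 (ENSMUSG00000022769), a partner of the Hsp40-type co-chaperones of the ER, was 18.4, 16.0 and 16.5 FPKM in MWA+PBS and 9.30, 8.69 and 7.07 in MWA+2DG. The groups were far apart, at 16.9 ± 1.26 against 8.35 ± 1.15 (SD, n = 3 each), and the log2 fold change was -0.94 ± 0.10 (SE, limma adjusted p = 0.000329). Hspa5 (ENSMUSG00000026864), which encodes BiP, the central Hsp70-type chaperone of the ER and the protein that keeps the sensors inactive, was 136, 145 and 128 FPKM in MWA+PBS and 78.2, 81.0 and 82.0 in MWA+2DG. All MWA+2DG samples were below all MWA+PBS samples, at 80.4 ± 1.97 against 136 ± 8.47, and the mean fell by 41.1% (log2 fold change -0.75 ± 0.06, limma adjusted p = 8e-05). Only 6.18% of all tested genes had a lower log2 fold change than Hspa5.

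Dnajb9 (ENSMUSG00000014905), an Hsp40-type co-chaperone of BiP that acts on IRE1, was 13.5, 14.6 and 13.4 FPKM in MWA+PBS and 8.65, 9.80 and 10.1 in MWA+2DG. The groups did not overlap, and the log2 fold change was -0.50 ± 0.07 (limma adjusted p = 0.00133). Hsp90b1 (ENSMUSG00000020048), which encodes the Hsp90-type chaperone GRP94 needed for integrins and Toll-like receptors, was 180.3, 201 and 169 FPKM against 131, 131 and 142. It was lower in all 3 MWA+2DG samples (log2 fold change -0.44 ± 0.07, limma adjusted p = 0.00299). Hyou1, a large Hsp70-type protein that exchanges the nucleotide of BiP, was also lower, at 25.9 ± 1.37 against 20.01 ± 0.460 FPKM (-0.36, limma adjusted p = 0.00231).

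Creld2 and Manf, small secreted or luminal proteins induced by ER stress, had log2 fold changes of -0.31 and -0.30 (limma adjusted p = 0.0254 and 0.0229). Each call was lost in some of the fits that left out a sample. The estimates in those fits stayed negative, at -0.40 to -0.25 for Creld2 and -0.37 to -0.24 for Manf. Manf was not called without MWA+PBS replicate 1 (limma adjusted p = 0.0797), MWA+PBS replicate 2 (0.055) or MWA+2DG replicate 5 (0.0702). Creld2 was not called without MWA+PBS replicate 1 (limma adjusted p = 0.0768), MWA+PBS replicate 2 (0.0606), MWA+2DG replicate 4 (0.0783) or MWA+2DG replicate 5 (0.0729). The other co-chaperones of BiP in the group were not called. Dnajb11 was 24.3 ± 1.96 against 23.2 ± 1.79 FPKM, with overlapping groups (log2 fold change -0.06, 95% confidence interval -0.25 to 0.12, limma adjusted p = 0.565). Dnajc3, which inhibits PERK as well as assisting BiP, was 34.2 ± 0.758 against 36.1 ± 1.15 FPKM (0.08, interval -0.04 to 0.19, limma adjusted p = 0.266).

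Of the lectin chaperones and disulfide isomerases 5 of 6 were lower, 0 were higher and 1 was not called, with a median log2 fold change of -0.35. P4hb (ENSMUSG00000025130), the founding protein disulfide isomerase, was 91.7, 93.2 and 93.8 FPKM in MWA+PBS and 57.4, 55.9 and 59.3 in MWA+2DG. The samples of each group lay close together, at 92.9 ± 1.04 and 57.5 ± 1.73, and the log2 fold change was -0.68 ± 0.05 (limma adjusted p = 4.4e-05). Pdia6 (ENSMUSG00000020571), an isomerase that also tunes IRE1, was 40.6, 40.1 and 34.3 FPKM against 25.8, 23.0 and 26.2, without overlap (-0.60 ± 0.08, limma adjusted p = 0.00116). Its relative Pdia4 was lower by less, at 50.8 ± 1.57 against 44.6 ± 1.42 FPKM (-0.18, limma adjusted p = 0.0249). Pdia4 lost its call without MWA+PBS replicate 1 (limma adjusted p = 0.0748), MWA+PBS replicate 3 (0.077), MWA+2DG replicate 4 (0.0935) or MWA+2DG replicate 5 (0.06).

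Calr (ENSMUSG00000003814) and Canx (ENSMUSG00000020368) encode calreticulin and calnexin, which hold glycoproteins through their trimmed glycans while they fold. Calr was 207, 224 and 197 FPKM in MWA+PBS and 166, 158 and 170.1 in MWA+2DG. Canx was 79.5, 85.2 and 81.5 FPKM against 59.7, 67.8 and 64.1. Neither gene had overlapping groups, and the log2 fold changes were -0.34 ± 0.07 for Calr and -0.36 ± 0.06 for Canx (limma adjusted p = 0.00536 and 0.00334). Pdia3, the isomerase that works with these lectins and in the loading of MHC class I, was the exception. It was 124, 151 and 119 FPKM in MWA+PBS and 127, 121 and 137 in MWA+2DG, so the groups overlapped (-0.03 ± 0.10, interval -0.25 to 0.20, limma adjusted p = 0.857). Its sign was positive without MWA+PBS replicate 2 (0.08) and without MWA+2DG replicate 5 (0.02), and it was not called in either case.

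**Figure D3:**
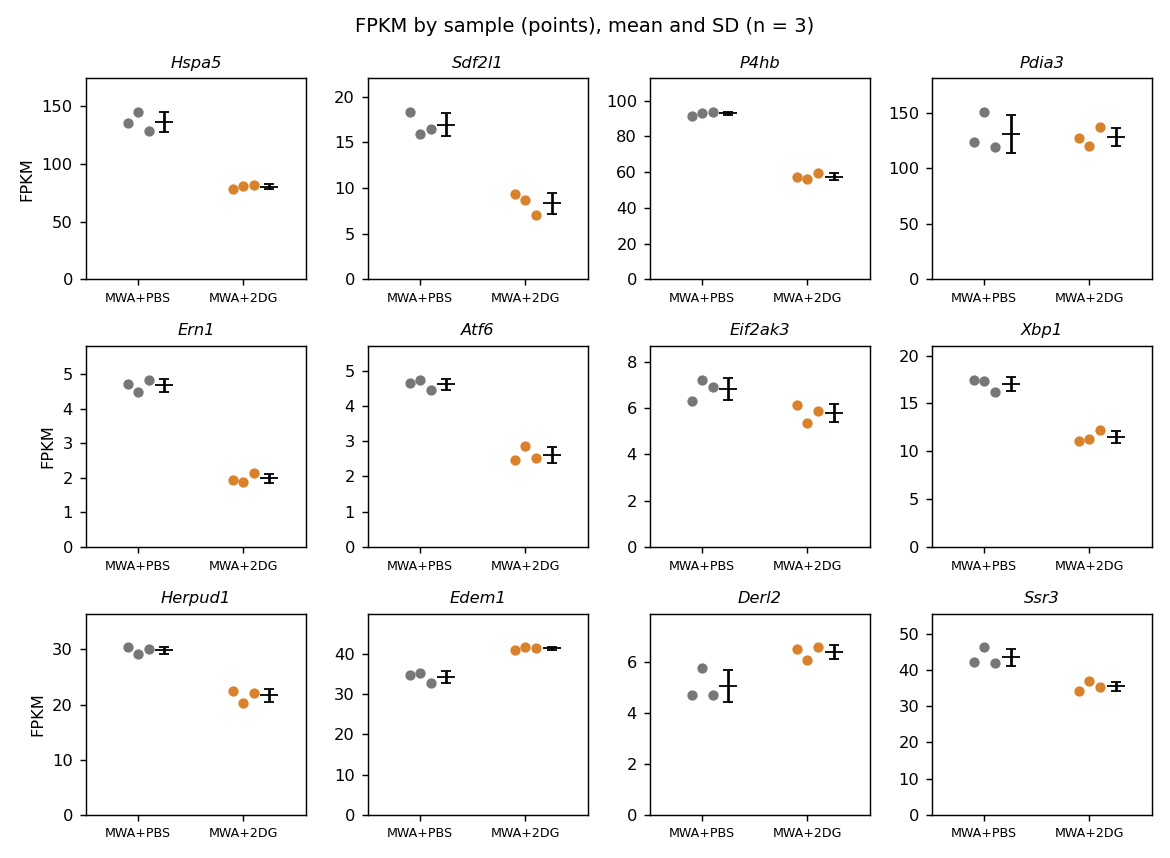
FPKM (y axes, from 0, one scale per gene) in 3 samples of MWA+PBS (left) and 3 of MWA+2DG (right) for 12 ER genes; points are samples, and the horizontal marks and bars beside them are the mean and SD. The groups are apart for Hspa5, Sdf2l1, P4hb, Ern1, Atf6, Xbp1, Herpud1 and Ssr3 with MWA+2DG lower, overlap for Pdia3, and are apart with MWA+2DG higher for Edem1 and Derl2.

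The sensors and their transcription factor were lower for 3 of 4 genes, with a median log2 fold change of -0.58, and values from -0.93 to -0.20. Ern1 (ENSMUSG00000020715), which encodes IRE1, the kinase and endoribonuclease that splices Xbp1, was 4.71, 4.48 and 4.84 FPKM in MWA+PBS and 1.94, 1.87 and 2.14 in MWA+2DG. The mean fell by 57.6%, from 4.68 ± 0.182 to 1.98 ± 0.140 (log2 fold change -0.93 ± 0.07, limma adjusted p = 7.87e-05), the largest percentage among the tested ER genes. Atf6 (ENSMUSG00000026663), the membrane-bound transcription factor, was 4.66, 4.74 and 4.44 FPKM against 2.46, 2.87 and 2.51. It was lower in every MWA+2DG sample (-0.64 ± 0.07, limma adjusted p = 0.000525). Xbp1 (ENSMUSG00000020484) was 17.5, 17.4 and 16.2 FPKM against 11.0, 11.2 and 12.2, without overlap (-0.53 ± 0.06, limma adjusted p = 0.000506). Gene FPKM sums the spliced and unspliced mRNA, so the splicing of Xbp1 was not measured.

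Eif2ak3 (ENSMUSG00000031668), which encodes PERK, was 6.31, 7.22 and 6.91 FPKM in MWA+PBS and 6.14, 5.35 and 5.88 in MWA+2DG. The groups did not overlap but were close, at 6.81 ± 0.463 against 5.79 ± 0.403, and the gene was not called (log2 fold change -0.20 ± 0.07, interval -0.38 to -0.03, limma adjusted p = 0.0669). It was called with quantile normalization (-0.24, limma adjusted p = 0.0312) and with median ratio scaling (-0.25, limma adjusted p = 0.032). It was not called with arrayWeights (-0.13, limma adjusted p = 0.137) or when any of the 6 samples was left out (-0.25 to -0.16). Scaling to T lineage genes, which moved the median of all tested genes to -0.31, gave -0.57 (limma adjusted p = 0.000436). Within each sample the ratio of Ern1 to Eif2ak3 was 0.746, 0.620 and 0.7004 in MWA+PBS and 0.316, 0.350 and 0.364 in MWA+2DG. Atf6 to Eif2ak3 was 0.679 ± 0.0518 against 0.455 ± 0.0720, and Ern1 to Atf6 was 1.02 ± 0.0726 against 0.764 ± 0.103 (SD, n = 3 each). These and 3 further ratios were chosen after the values were seen, so they are given as a description. An exact permutation test gave p = 0.1 for each ratio, the smallest value possible with 3 samples per group. The further ones were Hspa5 to Pdia3 (1.05 ± 0.0727 against 0.628 ± 0.0390), P4hb to Pdia3 (0.715 ± 0.0881 against 0.449 ± 0.0157) and Herpud1 to Edem1 (0.873 ± 0.0480 against 0.525 ± 0.0316). A ratio within a sample does not change when all genes of the sample are scaled by the same factor. Quantile normalization is not such a scaling.

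The degradation genes were mixed, with 3 of 7 tested lower, 2 higher and 2 not called, and a median log2 fold change of -0.06. Herpud1 (ENSMUSG00000031770), a membrane protein that gathers the retrotranslocation complex, was 30.4, 29.1 and 30.1 FPKM in MWA+PBS and 22.6, 20.4 and 22.2 in MWA+2DG. All MWA+2DG samples were lower (-0.44 ± 0.06, limma adjusted p = 0.000787). Syvn1 (ENSMUSG00000024807), which encodes the ubiquitin ligase HRD1 at the centre of that complex, was 13.4, 12.8 and 13.7 FPKM against 9.74, 11.4 and 11.0, also without overlap (-0.29 ± 0.07, limma adjusted p = 0.0136). Its partner Sel1l was 13.1 ± 0.360 against 11.6 ± 0.227 FPKM (-0.17, limma adjusted p = 0.0374). The call of Sel1l was lost when any sample but MWA+PBS replicate 2 was left out, with limma adjusted p = 0.073 without MWA+PBS replicate 1, 0.106 without MWA+PBS replicate 3, and 0.11, 0.0611 and 0.119 without MWA+2DG replicates 4, 5 and 6.

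Edem1 and Derl2 were the only members called higher. Edem1 (ENSMUSG00000030104), a mannosidase-like protein that marks misfolded glycoproteins for disposal, was 34.8, 35.2 and 32.6 FPKM in MWA+PBS and 40.9, 41.5 and 41.5 in MWA+2DG. Its groups did not overlap (0.27 ± 0.05, limma adjusted p = 0.0053). The direction was reversed with scaling to T lineage genes (-0.15, limma adjusted p = 0.0357), which moved the median of all tested genes to -0.31. Derl2 (ENSMUSG00000018442), a derlin of the retrotranslocation channel, was 4.68, 5.76 and 4.70 FPKM against 6.49, 6.05 and 6.55, also without overlap (0.29 ± 0.09, limma adjusted p = 0.0314), and with scaling to T lineage genes the value was -0.07 (limma adjusted p = 0.465). The scaled values of both genes lay above that shifted median. Derl2 was not called without MWA+PBS replicate 1 (limma adjusted p = 0.104) or 3 (0.0913), or without MWA+2DG replicate 4 (0.091) or 6 (0.0935).

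Edem2 and Derl1, relatives of the genes just described, were not called. Edem2 was 12.8 ± 0.380 against 12.2 ± 0.653 FPKM (-0.06, interval -0.20 to 0.08, limma adjusted p = 0.476) and Derl1 was 23.7 ± 0.490 against 24.6 ± 0.843 (0.05, interval -0.07 to 0.17, limma adjusted p = 0.44). Derl3, the derlin of secretory cells, had a mean below 1 FPKM and was not tested. It was 1.14, 1.03 and 0.67 FPKM in MWA+PBS and 0.61, 0.63 and 0.39 in MWA+2DG, with all MWA+2DG samples lower.

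Of the translocon genes 3 of 4 were lower and 1 was not called, with a median log2 fold change of -0.25. Ssr1 (ENSMUSG00000021427) and Ssr3 (ENSMUSG00000027828) encode subunits of the translocon-associated protein complex. Ssr1 was 10.5, 11.3 and 10.6 FPKM in MWA+PBS and 8.31, 8.79 and 8.22 in MWA+2DG. Ssr3 was 42.3, 46.2 and 42.0 FPKM against 34.2, 36.8 and 35.3. Both were lower in every MWA+2DG sample (-0.32 ± 0.06 and -0.29 ± 0.06, limma adjusted p = 0.00434 and 0.00705).

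The changes in the subunits of the Sec61 channel itself were smaller or more variable. Sec61a1 (ENSMUSG00000030082), the pore subunit, was 22.3, 22.6 and 22.1 FPKM against 20.3, 19.6 and 20.5. Its groups did not overlap, but it fell by 9.88% and its limma adjusted p of 0.0497 (-0.14 ± 0.05) was just under the threshold. Leaving out any of the 6 samples ended the call, with limma adjusted p = 0.133, 0.0646 and 0.0915 without MWA+PBS replicates 1, 2 and 3, and 0.114, 0.132 and 0.102 without MWA+2DG replicates 4, 5 and 6. Sec61b (ENSMUSG00000053317) was 18.4, 19.5 and 16.6 FPKM against 18.2, 13.7 and 14.7, so that MWA+2DG replicate 4 lay among the MWA+PBS samples. It was not called (-0.22 ± 0.11, interval -0.47 to 0.03, limma adjusted p = 0.145), and was called without that replicate (-0.33, limma adjusted p = 0.0285). Without MWA+2DG replicate 5 the value was -0.14 (limma adjusted p = 0.359).

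Because the CD8 T cell genes rose in FPKM, the fit was repeated after each sample was scaled to 17 T lineage genes. This scaling moved the median log2 fold change of all tested genes by -0.36, to -0.31, and 59.5% of tested genes were then lower and 5.19% higher. With it, 29 of the 30 tested ER genes were lower and 0 higher, and 30 of 30 had a negative log2 fold change, with a median of -0.70. Relative to the shifted median of all genes, Hspa5 (-1.17), Ern1 (-1.24) and Sdf2l1 (-1.33) were still further down, whereas Edem1 (-0.15) and Derl2 (-0.07) lay above it. Dnajc3 (0.08 as deposited and -0.34 scaled) and Derl1 (0.05 and -0.35) lay close to the median of all tested genes in both cases.

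**Figure D4:**
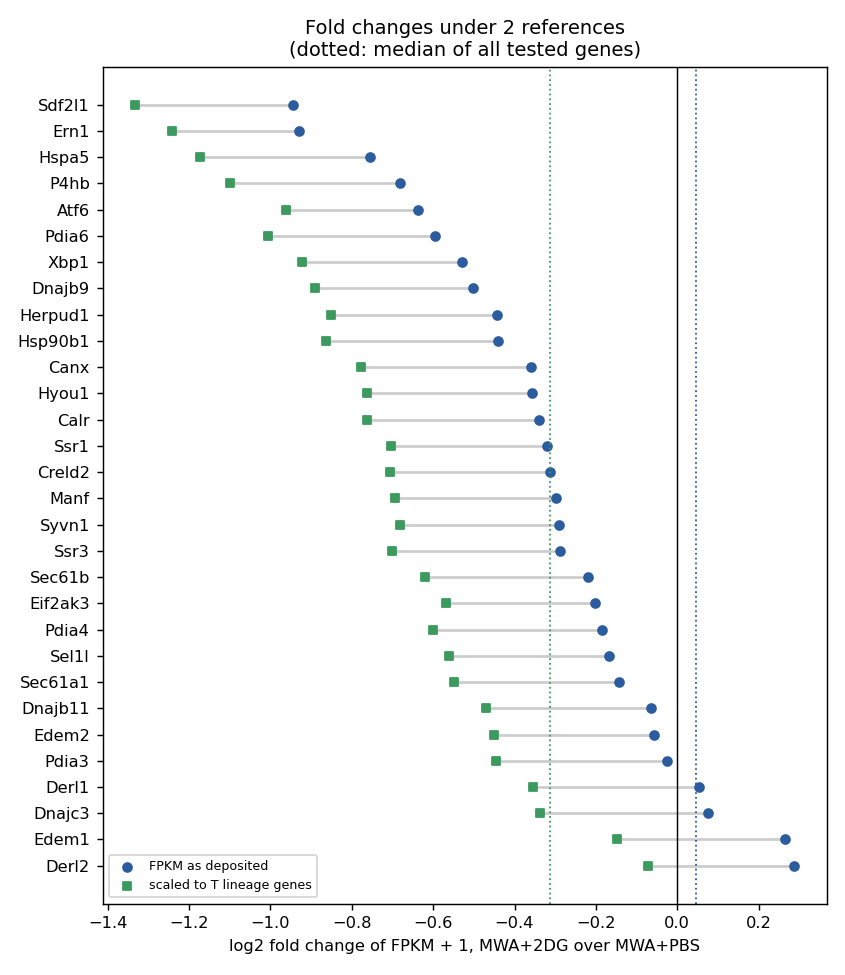
Log2 fold change of FPKM + 1 (x axis, MWA+2DG over MWA+PBS) of the 30 tested ER genes with FPKM as deposited (circles) and after scaling to 17 T lineage genes (squares); dotted lines are the medians of all tested genes, 0.05 and -0.31. The order of the genes is nearly kept, and Edem1, Derl2, Derl1 and Dnajc3 change sign.

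The members were also described by their promoter elements. Of the 11 with an ERSE or ERSE-II in the window 10 were tested, and 8 were lower, 0 higher and 2 not called, with a median log2 fold change of -0.35. The 2 not called were Dnajc3 and Dnajb11, whose elements are described above. Of the 15 with neither element 9 were lower, 2 higher and 4 not called, with a median of -0.22. The latter held Sdf2l1 and Ern1, the members with the largest decreases. The 5 members absent from the promoter data held 4 that were lower and 1 that was not called. The difference between these classes was not tested.

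The rest of the pathway was described from 117 further genes, of which 106 were tested. Of these 16 were higher, 25 lower and 65 not called, with a median log2 fold change of -0.01, beside the 17.1% lower and 22.3% higher among all genes. The count of those higher was 9 without MWA+2DG replicate 4 and 10 without MWA+2DG replicate 6, where the share over all genes is not given. With scaling to T lineage genes 86 were lower and 0 higher, beside 59.5% lower and 5.19% higher among all genes. In the list of genes around PERK and ATF4 0 of 8 tested were higher and 3 lower. That list also held genes other than outputs, such as Eif2s1, Eif2a and Ppp1r15b, and these were not called. Atf4 (ENSMUSG00000042406), the transcription factor translated when PERK is active, was 45.1, 50.9 and 39.4 FPKM in MWA+PBS and 34.4, 31.4 and 34.4 in MWA+2DG (-0.42 ± 0.09, limma adjusted p = 0.0103). Ppp1r15a (ENSMUSG00000040435), which encodes GADD34, the phosphatase subunit that ends the translation block, was 43.8, 43.3 and 38.6 FPKM against 21.2, 19.9 and 19.9. It was lower in every MWA+2DG sample (-1.01 ± 0.06, limma adjusted p = 2.76e-05). Sesn2, a stress-induced regulator of TORC1, was also lower (-0.70, limma adjusted p = 0.00496).

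Ddit3 (ENSMUSG00000025408), which encodes the pro-apoptotic factor CHOP, was not called. It was 7.32, 6.35 and 5.95 FPKM in MWA+PBS and 7.30, 8.08 and 7.64 in MWA+2DG, with overlapping groups (0.21 ± 0.08, limma adjusted p = 0.0844). It was called higher without MWA+PBS replicate 1 (0.28, limma adjusted p = 0.0385). Its value with scaling to T lineage genes was negative (-0.17), but above the shifted median of all tested genes, -0.31. Trib3, a target of CHOP, was between 0.16 and 0.37 FPKM in the 6 samples and was not tested. Ero1l, the oxidase that recharges the disulfide isomerases, was 11.4 ± 1.06 against 12.7 ± 0.685 FPKM (0.14, limma adjusted p = 0.177). It was called higher without MWA+PBS replicate 2 (0.21, limma adjusted p = 0.0346). With scaling to T lineage genes it was called lower (-0.25, limma adjusted p = 0.0243), though it lay above the shifted median.

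Among ATF6 processing and related factors 1 of 8 was higher and 3 lower, and among IRE1 partners 0 of 7 were higher and 2 lower. Of the other folding enzymes and chaperones 6 of 29 were higher and 7 lower. The shares among all tested genes were 22.3% higher and 17.1% lower. Prdx4, an ER peroxiredoxin, was 3.10, 3.08 and 3.72 FPKM in MWA+PBS and 1.53, 0.91 and 1.13 in MWA+2DG (-0.98 ± 0.12, limma adjusted p = 0.000751). Sil1, a nucleotide exchange factor of BiP, was 5.37 ± 0.444 against 2.81 ± 0.211 FPKM (-0.74 ± 0.08, limma adjusted p = 0.000364). Tapbp, tapasin of the MHC class I loading complex, was 79.2, 66.8 and 81.0 FPKM against 97.3, 104 and 95.4. It was higher in every MWA+2DG sample (0.39 ± 0.08, limma adjusted p = 0.00828). With scaling to T lineage genes it was not called (-0.03), where the median of all tested genes was -0.31.

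Of the other degradation genes 4 of 26 were higher and 6 lower, beside 22.3% higher and 17.1% lower among all tested genes. The largest increase was that of Erlec1, a lectin of the HRD1 complex, at 5.91 ± 0.442 against 8.06 ± 0.572 FPKM (0.39, limma adjusted p = 0.00567). Of the other translocation genes 5 of 28 were higher and 4 lower, beside the same shares of all tested genes. Sec61a2, the less abundant form of the pore subunit, was 1.66 ± 0.226 against 2.73 ± 0.387 FPKM (0.48, limma adjusted p = 0.0114), opposite in sign to Sec61a1. With scaling to T lineage genes Erlec1 was 0.02 and Sec61a2 0.20, not called (limma adjusted p = 0.857 and 0.173), but both lay above the shifted median of all tested genes, -0.31. Srp54a, a subunit of the signal recognition particle, was 3.63 ± 1.12 against 5.87 ± 1.34 FPKM (0.58, limma adjusted p = 0.0454). Its near-identical copies can share reads and make this value uncertain, and it was not called without MWA+PBS replicate 1 (limma adjusted p = 0.133) or 3 (0.122), or without MWA+2DG replicate 4 (0.0788) or 5 (0.126).

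**Figure D5:**
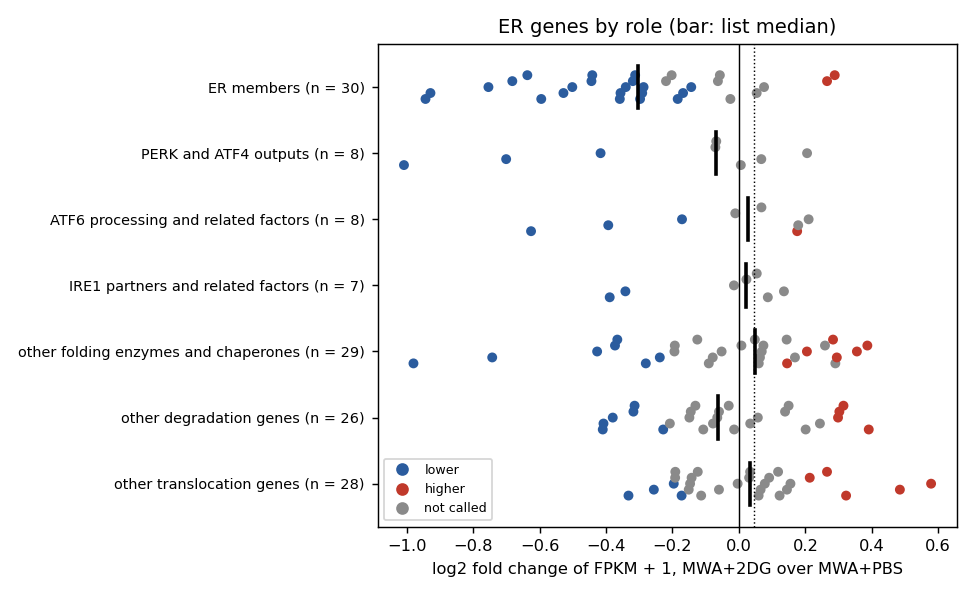
Log2 fold change of FPKM + 1 (x axis, MWA+2DG over MWA+PBS) of each tested gene in the 31-gene ER group and in 6 further lists of the pathway, coloured by test call; black bars are list medians and the dotted line is the median of all tested genes. The bar of the ER group lies at -0.31 and those of the other lists between -0.07 and 0.05.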

How the data were processed

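RNA of 6 samples was sequenced from poly(A) libraries that marked the strand and carried molecular identifiers. Per the labels and the methods, the authors mapped reads with HISAT2 2.0.4 and computed FPKM with StringTie 1.3.4d and ballgown; the submitters' processing notes also name cutadapt 1.9, UMI-tools and mm9. The deposited FPKM values hold no counts and are shares of a library, so that a rise in some transcripts lowers the FPKM of the rest. No source used here says whether strand was used in the quantification, and reads of genes that overlap on opposite strands may not be told apart.

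Of 28773 IDs 28689 had a symbol in GENCODE M21 and 84 did not. All 284 genes of the lists were found, 1 of them by an older symbol. The fit used the lmFit and eBayes functions (trend on) of limma 3.58.1 under R 4.3.3, on log2(FPKM + 1), two-sided and with no covariate, for genes with a mean FPKM of at least 1. With a pseudocount of 1, changes of low genes come out too small. The script was tested on simulated data. The 17 T lineage genes used for scaling encode T cell receptor, CD3 and CD8 chains, such as Cd3e, Cd8a and Trac, and other T cell surface, signaling and transcription factor genes, which are not all named here. Every member is named. Values in every sample are given for the sensors and Xbp1 and, in each other role, for the 4 members with the largest change. Of the further pathway genes, Atf4, Ddit3, Ppp1r15a, Trib3 and Ero1l were always named, with the 4 largest increases and 4 largest decreases called. Values of Pdia3 and Derl3 in every sample, the ratios and the promoter sequences shown were chosen after values were seen. The members, lists, scaling and alternatives were chosen with earlier results of these data known. Protein sequences were not analysed here.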

Additional observations from a re-analysis of the deposited data

How the results depend on the processing

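The alternatives were 4 scalings (quantile normalization, median ratio, T lineage genes, and a total that left out the dominant mitochondrial, ribosomal protein, immunoglobulin and haemoglobin genes), a minimum mean FPKM of 5 or none, a pseudocount of 0.1, eBayes without a trend, arrayWeights, the rule of the study's methods, and leaving out each sample. Of the 31 ER genes 16 kept direction and call in every setting that gave a value, and 21 in every setting but the T lineage scaling. Without a filter on low values 1 ER gene was called higher, and Manf (limma adjusted p = 0.0506), Creld2 (0.0578) and Derl2 (0.0673) were not called. With median ratio scaling the median log2 fold change of the tested ER genes was -0.35. With T lineage scaling 0 ER genes were higher and the median was -0.70, and of the other pathway genes 0 were higher and 86 lower. That scaling moved the median of all tested genes by -0.36, to -0.31, and with it the sign turned for Dnajc3 (-0.34), Edem1 (-0.15), Derl1 (-0.35), Derl2 (-0.0718), Ddit3 (-0.17), Ero1l (-0.25) and Tapbp (-0.0326). Of these, Edem1, Derl2, Ddit3, Ero1l and Tapbp lay above the shifted median. Pdia3 was reversed with arrayWeights (0.0449), without MWA+PBS replicate 2 (0.0781) and without MWA+2DG replicate 5 (0.0185), with a range of -0.0921 to 0.0781 over the samples left out. Sec61a1 was not called with a pseudocount of 0.1, a mean FPKM of at least 5 or eBayes without a trend, and Sel1l was not called with the last. Pdia4, Sel1l and Sec61a1 did not pass the rule of the study's methods. Srp54a was not called under 9 of the alternatives, 4 of which left out a sample. Ero1l was called higher with arrayWeights (limma adjusted p = 0.0355) and lower with T lineage scaling (limma adjusted p = 0.0243).

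Leaving out each sample gave 1 to 2 ER genes called higher and 16 to 19 called lower, with a median log2 fold change of -0.33 to -0.29. Of the other pathway genes 9 to 20 were higher and 17 to 26 lower. The share of all tested genes called in each of these fits is not given here. A loss of calls limited to the listed genes therefore cannot be told apart from a general one. The lowest count of other pathway genes called higher, 9, was without MWA+2DG replicate 4, and it was 10 without MWA+2DG replicate 6. The single ER gene left as higher without MWA+PBS replicate 1 or 3, or without MWA+2DG replicate 4 or 6, was Edem1. Fewer samples were fitted in each, and other causes were not tested. No paired analysis was possible because the groups share no replicate numbers in the labels. The depth is unknown, so no counting error could be given.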
